A study of Arabidopsis thaliana with 22 samples.

Results

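Trehalose 6-phosphate synthase transcripts were followed in mature leaves of Arabidopsis thaliana, in the wild type and in 4 mutants of the photorespiratory pathway, in CO2-enriched air and after a shift to ordinary air. The family was represented by 10 of the 25680 loci in the deposited table, TPS1 (AT1G78580), TPS2 (AT1G16980), TPS4 (AT4G27550), TPS5 (AT4G17770), TPS6 (AT1G68020), TPS7 (AT1G06410), TPS8 (AT1G70290), TPS9 (AT1G23870), TPS10 (AT1G60140) and TPS11 (AT2G18700). These are trehalose, not terpene, synthases, although both families share the abbreviation. The 10 loci were taken by locus identifier, and the family itself was selected from earlier results on the levels of these genes over the same 10 groups, so the levels are a description. The adjusted p-values below measure the size of a difference against the spread between replicates and are not independent evidence for the family.

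Plants were grown in 1% CO2 (HC) to growth stage 5.1, and the LC plants were then given 0.038% CO2 (LC) from before dawn; leaves were taken 8 h after the light came on. The 10 groups were the wild type and the T-DNA insertion lines hpr1-1, shm1-2, glyk1-1 and pglp1-1, each in HC and in LC, with 3 libraries in each wild-type group and 2 in each mutant group, 22 in all. The targeted genes encode the peroxisomal hydroxypyruvate reductase HPR1, the mitochondrial serine hydroxymethyltransferase SHM1, glycerate kinase and phosphoglycolate phosphatase, enzymes of the cycle that recovers the product of Rubisco's reaction with oxygen. All plants, the LC plants included, had been raised in HC, where photorespiration is low. Each mutant was 1 insertion line, so effects of the targeted gene and of anything else carried by that line cannot be told apart. In these bulk leaves, fewer cells of a type and less RNA per cell cannot be told apart either.

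Trehalose 6-phosphate (T6P) is made from UDP-glucose and glucose 6-phosphate by the synthases, dephosphorylated to trehalose by trehalose 6-phosphate phosphatases, and trehalose is cleaved to glucose by trehalase. T6P follows the sucrose content of plant tissue and inhibits SnRK1, a protein kinase that is active when sugar or energy is short. The class I genes TPS1, TPS2 and TPS4 encode catalytically active synthases, and TPS1 is the main one in vegetative tissue and is needed for embryo development. The class II genes TPS5 to TPS11 encode proteins with a synthase-like and a phosphatase-like domain whose biochemical role is less clear. In Arabidopsis, TPS8 to TPS11 transcripts are known to rise in sugar-starved tissue and TPS5 transcript to rise when sugar is supplied.

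The promoter-proximal bases of 3 class II genes are shown because TPS5 had the largest decrease of the family in LC, and TPS9 and TPS11 the largest increases among the 8 members expressed in every group. Each run holds the 250 bases before the annotated transcript start on the coding strand, read from the TAIR10.1 genome with its RefSeq annotation; TPS5 is at chr4:9875922-9876171, TPS9 at chr1:8431929-8432178 and TPS11 at chr2:8108648-8108897, all on the plus strand. Capitals mark the core of bZIP factor sites, ACGT, in TPS9 and the sugar repressive element, TTATCC, in TPS11.
TPS5: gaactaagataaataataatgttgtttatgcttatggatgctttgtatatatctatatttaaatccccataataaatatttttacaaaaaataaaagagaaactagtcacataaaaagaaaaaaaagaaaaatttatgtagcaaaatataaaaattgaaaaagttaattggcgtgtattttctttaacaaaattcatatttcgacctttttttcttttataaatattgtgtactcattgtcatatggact
TPS9: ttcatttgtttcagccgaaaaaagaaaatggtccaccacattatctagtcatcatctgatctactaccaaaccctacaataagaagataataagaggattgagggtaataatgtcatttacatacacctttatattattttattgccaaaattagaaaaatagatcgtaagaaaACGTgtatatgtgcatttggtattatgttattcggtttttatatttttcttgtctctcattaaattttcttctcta
TPS11: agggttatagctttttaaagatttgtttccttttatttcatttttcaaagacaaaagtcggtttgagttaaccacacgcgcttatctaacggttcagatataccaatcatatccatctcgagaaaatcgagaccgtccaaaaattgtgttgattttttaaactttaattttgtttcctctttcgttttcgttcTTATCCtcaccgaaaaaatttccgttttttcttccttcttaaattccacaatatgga

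The letters ACGT, which are their own reverse complement, were found in 5 of the 10 members' windows. Over the annotated protein-coding genes of the nuclear chromosomes they were in 12096 of 27443 windows of the same length (44.1%). In the members the letters began 192 bases before the start in TPS4, 246, 220 and 101 in TPS6, 82 in TPS8, 76 in TPS9 and 150 in TPS10. The letters TTATCC, searched on both strands, were found in 3 of 10 members and in 3428 of all windows (12.5%), at 73 bases before the start in TPS4, 146 in TPS6 and 57 in TPS11. Neither motif was in the windows of TPS1, TPS2, TPS5 or TPS7. Both motifs were chosen with the transcript values known, no matches overlapped, and a match in this window is a description of the letters only.

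In the TAIR10.1 annotation the class I genes have many exons and the class II genes few. TPS1 lies on chromosome 1 at 29552340 to 29560912 on the minus strand with 18 exons. TPS2 lies on chromosome 1 at 5807200 to 5811610 and TPS4 on chromosome 4 at 13755649 to 13759740, both on the plus strand with 17 exons. Among the class II genes, TPS5 (chromosome 4, 9876172 to 9880386), TPS8 (chromosome 1, 26470795 to 26474833), TPS9 (chromosome 1, 8432179 to 8435656) and TPS10 (chromosome 1, 22176934 to 22181740) have 4 exons each. TPS6 (chromosome 1, 25496928 to 25500584) has 2 exons, TPS7 (chromosome 1, 1954674 to 1958866) has 5 and TPS11 (chromosome 2, 8108898 to 8112010) has 3. TPS8 and TPS10 are on the minus strand and the other class II genes on the plus strand. The library kit named in the labels does not mark the strand, so reads from overlapping genes on opposite strands were counted without regard to strand.

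The libraries held 5911382 counts (hpr1 LC replicate 1) to 194460991 counts (shm1 LC replicate 1). The targeted genes were low in their own lines in both conditions, in HC for example at a mean of 1.45 CPM against 317 for HPR1, 97.4 against 1854 for SHM1 and 1.32 against 180.1 for glycerate kinase. For phosphoglycolate phosphatase the 2 near-identical copies were at 11.8 against 88.4 CPM and 12.7 against 266 CPM. In wild type LC replicate 3, the values of 4919 rows (19.2%) in 3 blocks stood against the wrong locus, so those loci were fitted without that library; no member lies in these blocks. Leaf mesophyll markers (3 of 3 detected) summed to 34381 to 58231 CPM in wild type HC, and root, floral and seed markers to at most 5.89 CPM in any library. In LC the mesophyll sum was 14374 to 60239.9 CPM in the wild type, 23127 to 24390.0 in hpr1, 2449 to 4425 in shm1, 19634 to 19969 in glyk1 and 63129.7 to 73979 in pglp1. Guard cell markers (5 of 5 detected) summed in LC to 45.9 to 48.9 CPM in the wild type (2 libraries), 32.1 to 43.4 in hpr1, 79.0 to 80.8 in shm1, up to 90.9 in glyk1 and 57.1 to 61.9 in pglp1. Epidermal markers (4 of 4 detected) summed in LC to 110.5 to 176 CPM in the wild type, 105 to 108 in hpr1, 42.1 to 47.5 in shm1, 85.2 to 93.8 in glyk1 and 92.3 to 99.0 in pglp1. The part of these shifts in the members' values was not tested.

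All 10 members had a row, and 9 passed the filter on low counts. TPS4, a class I gene known from seeds, held 0 to 4 counts in every library and was not tested. TPS2 passed only through the pglp1 libraries and is described on its own. The other 8 members passed with counts in every library, and the counts of called members below are over these 8. Levels are given as CPM (counts per 1000000 counts of the library, scaled with TMM factors), and levels of different genes are compared only as the RPKM in the deposited table (reads normalised to library size and transcript length).

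**Figure D1:**
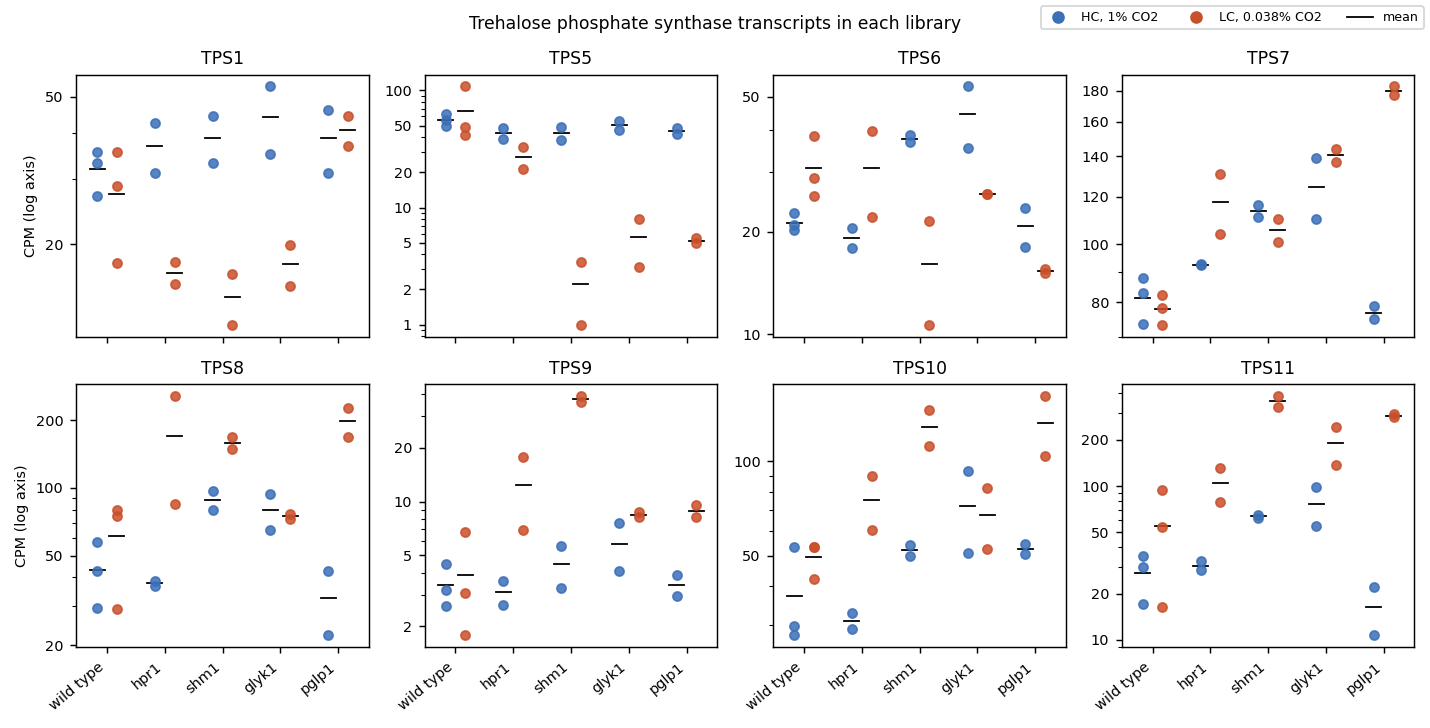
CPM of 8 members in each library on a log axis whose range differs between panels; points are libraries, bars are group means, HC in blue and LC in red. TPS5 in shm1, glyk1 and pglp1 LC lies at 0.984 to 8.04 CPM, below every other library, and TPS11 in the same groups at 136 to 382 CPM, above every other library.

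Per length and among these 8 members, TPS7 had the highest group mean in every HC group and in wild type LC. TPS11 had the highest group mean in shm1, glyk1 and pglp1 LC. TPS2 has no place in this order, since its RPKM is listed at 0 in pglp1, where it has counts. In wild type HC the mean RPKM (SD, n = 3) was 28.6 (4.64) for TPS7, 20.3 for TPS5, 16.1 for TPS8, 13.3 for TPS10, 10.9 for TPS1, 10.9 for TPS11, 7.87 for TPS6 and 1.25 for TPS9. Neighbours in that order overlapped between libraries, except that TPS9 lay apart at the bottom. Wild type LC began in the same way, with RPKM of 27.9 (2.46) for TPS7 and 25.5 for TPS5, whose libraries ran from 13.7 to 45.0.

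In shm1 LC the order of RPKM was TPS11 at 116 (7.73), TPS8 at 48.0, TPS10 at 36.8, TPS7 at 30.5, TPS9 at 11.5, TPS6 at 4.95, TPS1 at 4.06 and TPS5 at 0.676 (0.552). TPS5, next to the top in the wild type, was thus at the bottom, as it was in glyk1 LC at 1.54 (1.04) and in pglp1 LC at 1.23. TPS11 stood at 55.5 (18.8) RPKM in glyk1 LC and at 73.8 (5.79) in pglp1 LC. In hpr1 LC, TPS8 was highest at 63.8 (43.8) RPKM, which is 1 library, with TPS11 at 42.7, TPS7 at 42.5 and TPS5 at 10.1.

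**Figure D2:**
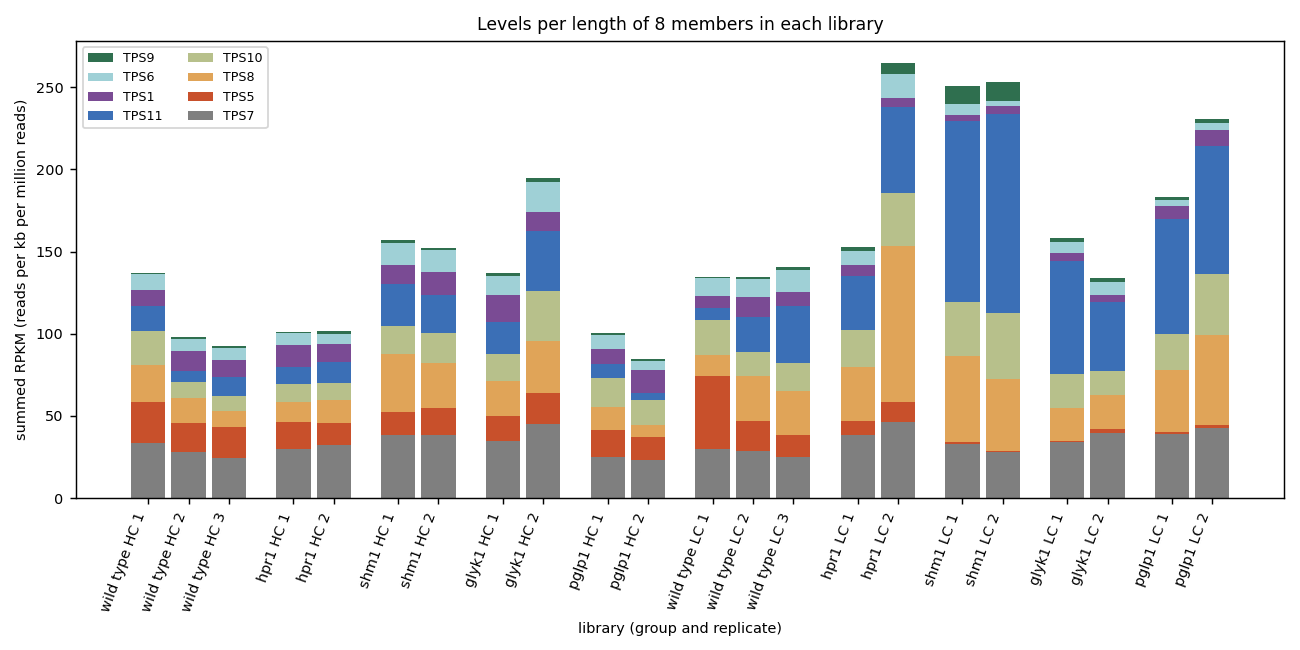
Deposited RPKM of 8 members stacked for each library, so that the height is the family's summed level per length. The sum, without TMM factors, is 251 and 253 in shm1 LC against 134 to 141 in wild type LC. The TPS11 share grows while the TPS5 share is at most 1.71% in shm1, glyk1 and pglp1 LC.

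The summed RPKM of the 8 members was 84.6 to 195 in the HC libraries and 134 to 141 in wild type LC. It was 153 and 265 in hpr1 LC, 251 and 253 in shm1 LC, 158 and 134 in glyk1 LC, and 183 and 230.3 in pglp1 LC. These sums carry no TMM factor. In LC the factors were 1.277, 1.108 and 1.010 in the wild type and 1.173 and 1.127 in hpr1. They were 0.941 and 0.888 in shm1, 0.792 and 0.869 in glyk1, and 0.696 and 0.742 in pglp1. A factor under 1 raises a scaled level, so the order of the groups by sum depends on the scaling. Shares within a library do not. The composition differed more than the sum. TPS11 made up 5.56%, 16.0% and 24.3% of the sum in wild type LC, 43.8% and 47.8% in shm1 LC, 43.4% and 31.6% in glyk1 LC, and 38.0% and 33.8% in pglp1 LC. TPS5 made up 33.4%, 13.2% and 9.72% in wild type LC, and between 0.113% and 1.71% in those 3 mutants.

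TPS1, the catalytic synthase of leaves, was at 27.1, 35.6 and 33.2 CPM in wild type HC and at 17.8, 35.5 and 28.7 in wild type LC. In LC it was at 17.9 and 15.7 CPM in hpr1, 12.1 and 16.7 in shm1, 19.9 and 15.5 in glyk1, and 36.8 and 44.5 in pglp1. The mutants' HC libraries read 42.4 and 31.2 CPM (hpr1), 33.1 and 44.3 (shm1), 53.3 and 35.1 (glyk1), and 31.2 and 46.0 (pglp1). Within hpr1, shm1 and glyk1 the LC libraries all lay below the HC libraries, whereas in the wild type and pglp1 the conditions overlapped.

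From HC to LC the TPS1 transcript fell 2.20-fold in hpr1 (log2 -1.14, SE 0.32, adjusted p = 0.0312), 2.69-fold in shm1 (-1.43, SE 0.32, adjusted p = 0.00116) and 2.50-fold in glyk1 (-1.32, SE 0.32, adjusted p = 0.00271). Its change was -0.23 (SE 0.26, adjusted p = 0.867) in the wild type and 0.07 (adjusted p = 0.863) in pglp1. In LC it was lower than in the wild type by 1.89-fold in shm1 (-0.92, SE 0.30, adjusted p = 0.0128). Its response in shm1 differed from that of the wild type by -1.19 (SE 0.41, adjusted p = 0.0225) and in glyk1 by -1.09 (SE 0.41, adjusted p = 0.0450); the second call was lost under 15 of 17 alternatives, with adjusted p of 0.00976 to 0.294. The shm1 response lost its call under 6 of 17 (adjusted p of 0.00436 to 0.106), those with only the groups compared in the fit (-1.12) and without wild type HC replicate 3 (adjusted p = 0.0606), shm1 HC replicate 2 (-0.97), wild type LC replicate 2 (-0.96), wild type LC replicate 3 (-0.92) or shm1 LC replicate 1 (-0.98). The hpr1 call was lost without any one of the 4 hpr1 libraries (-0.90 without HC replicate 1, -1.34 without HC replicate 2, -1.23 without LC replicate 1 and -1.04 without LC replicate 2). The shm1 call against wild type LC was lost without wild type LC replicate 2 (-0.69), wild type LC replicate 3 (-0.67) or shm1 LC replicate 1 (-0.70) and with only the groups compared (-0.72), and the glyk1 fall without glyk1 HC replicate 1 (-0.91, adjusted p = 0.0629).

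TPS2, a class I gene known mainly from seeds, had 1056 and 854 counts in pglp1 HC and 404 and 1248 in pglp1 LC, that is 114, 48.5, 46.7 and 105 CPM. It had 18 and 5 counts in shm1 LC, 1 in glyk1 LC replicate 1 and 0 in the other 15 libraries, all wild-type libraries included. Set against a floor of 3 counts over the wild-type group, the mean in pglp1 was at least 5100-fold higher in HC and at least 1565-fold higher in LC, and the lower library of each pair at least 3055-fold and 964-fold higher. No test of this difference is given, because TPS2 entered the fit only through the libraries in which it is high. Between pglp1 LC and HC the log2 difference was -0.09 (SE 0.50, adjusted p = 0.892), and the libraries of both conditions overlapped.

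The deposited RPKM for TPS2 was 0 in all 4 pglp1 libraries, although the deposited counts there were 404 to 1248. Of all 25680 loci, TPS2 was the only 1 with at least 100 counts and an RPKM of 0 in all 4 pglp1 libraries and under 25 counts in every other library. These limits follow the pattern of TPS2, which had 18 counts in shm1 LC replicate 1. Without the limits on libraries, 7 protein-coding loci had at least 100 counts and an RPKM of 0 in some library. In the authors' deposited table, TPS2 has a log2 fold change of 0.00 for pglp1 against the wild type, in HC and in LC. Their q-values there are under 0.05, so the 0.00 does not mean that the counts were alike. In shm1 LC the RPKM of TPS2 was 0.0355 and 0.0311, from 18 and 5 counts. By RPKM, shm1 LC thus lies above pglp1, opposite to the counts. For the 8 other tested members at most 4.99% of the counts were missing from the RPKM. Next to TPS2 on chromosome 1, the pglp1 counts were 0 in all 4 libraries for its tandem neighbour TPS3, 14 to 116 for KU70 and 109 to 239 for AT1G16960. The table of gene totals does not show where in the locus the reads lie, and the difference between the columns was not traced further.

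**Figure D3:**
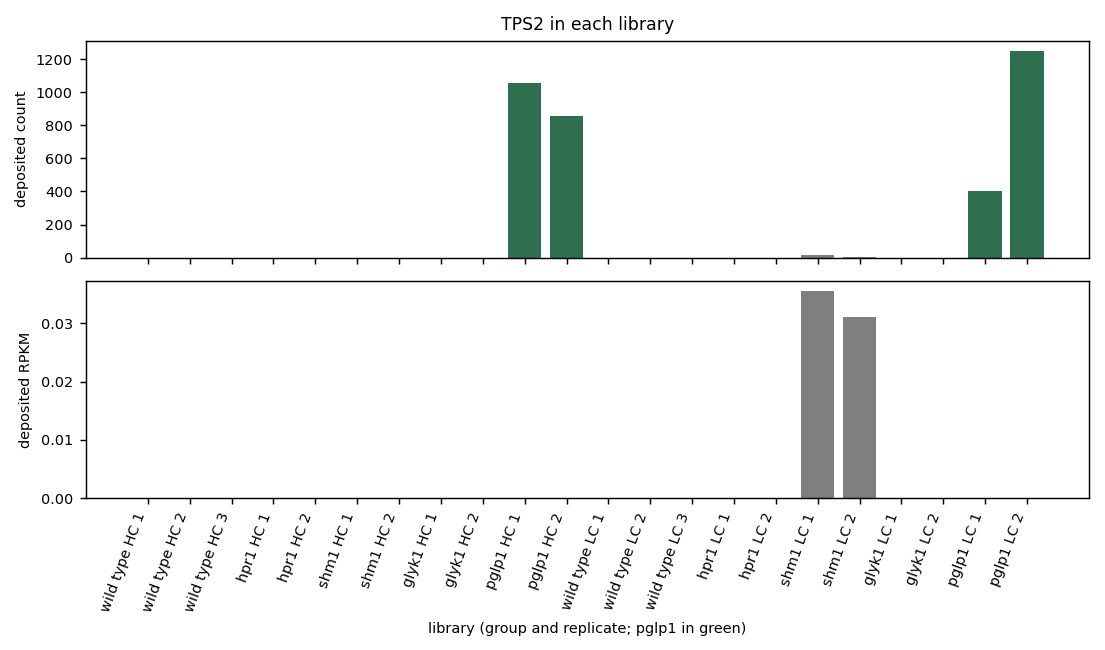
TPS2 (AT1G16980) in each of the 22 libraries, with deposited counts above and deposited RPKM below; pglp1 libraries are green. The 4 pglp1 libraries hold 404 to 1248 counts and an RPKM of 0.

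TPS5, a class II member that binds 14-3-3 proteins, was at 62.7, 49.3 and 55.6 CPM in wild type HC and at 108, 49.1 and 41.4 in wild type LC. The LC libraries of the mutants held 21.5 and 32.8 CPM in hpr1, 3.46 and 0.984 in shm1, 3.11 and 8.04 in glyk1, and 4.97 and 5.46 in pglp1. Mutant HC libraries lay at 37.7 to 54.7 CPM. All 6 LC libraries of shm1, glyk1 and pglp1 were far below every other library, and both hpr1 LC libraries lay between.

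Against wild type LC the TPS5 transcript was 29.2-fold lower in shm1 (log2 -4.87, SE 0.59, adjusted p = 4.89e-06), 11.9-fold lower in glyk1 (-3.57, SE 0.55, adjusted p = 7.31e-05) and 12.7-fold lower in pglp1 (-3.66, SE 0.57, adjusted p = 5.34e-05). In hpr1 the difference was -1.27 (SE 0.49, adjusted p = 0.180). Within each line, LC lay below HC by 19.2-fold in shm1 (-4.26, SE 0.59, adjusted p = 1.71e-05), 9.04-fold in glyk1 (-3.18, SE 0.56, adjusted p = 0.000240) and 8.62-fold in pglp1 (-3.11, SE 0.58, adjusted p = 0.000324). The shm1 value was -5.46 without shm1 LC replicate 1 and -3.52 without shm1 LC replicate 2, and the glyk1 value -4.01 without glyk1 LC replicate 2. The wild type changed by 0.24 (adjusted p = 0.929), or by -0.31 without LC replicate 1, which was its highest library. The response differed from that of the wild type by -4.50 (SE 0.70, adjusted p = 0.000108) in shm1, -3.42 (SE 0.69, adjusted p = 0.00127) in glyk1 and -3.35 (SE 0.70, adjusted p = 0.00141) in pglp1. No TPS5 call was lost under any alternative run; the size in shm1 against wild type LC ran from -6.07 without shm1 LC replicate 1 to -4.14 without shm1 LC replicate 2, and in glyk1 it was -4.41 without glyk1 LC replicate 2. The shm1 response was -5.70 and -3.75 without the same 2 shm1 libraries, and the glyk1 response -4.26 without that glyk1 library.

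TPS6, a class II member with a part in cell shape and trichome branching, lies next to HPR1 on chromosome 1. It was at 22.8, 20.9 and 20.2 CPM in wild type HC, 20.5 and 17.9 in hpr1 HC, 36.8 and 38.5 in shm1 HC, 35.2 and 53.6 in glyk1 HC, and 23.5 and 18.1 in pglp1 HC. In LC it was at 25.5, 28.8 and 38.4 CPM in the wild type, 22.1 and 39.6 in hpr1, 21.5 and 10.6 in shm1, 25.9 and 25.8 in glyk1, and 15.1 and 15.5 in pglp1. In HC the shm1 and glyk1 libraries lay above the wild type, without passing the test (0.82, adjusted p = 0.362, and 1.06, adjusted p = 0.252), and in LC shm1 lay below the wild-type range and glyk1 within it.

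The TPS6 fall from HC to LC was -1.23 (SE 0.32, adjusted p = 0.00347) in shm1, and -0.68 (adjusted p = 0.113) without shm1 LC replicate 2. Without shm1 LC replicate 1 the fall was -1.83, the response -2.37 and the difference from wild type LC -1.54. In glyk1 it was -0.78 (SE 0.32, adjusted p = 0.0482), a call lost under 9 of 11 alternatives, with adjusted p of 0.0261 to 0.455, among them those without glyk1 HC replicate 2 (-0.36), glyk1 LC replicate 1 (-0.78) or glyk1 LC replicate 2 (-0.78). The response was lower than that of the wild type by -1.76 (SE 0.41, adjusted p = 0.00222) in shm1 and by -1.32 (SE 0.41, adjusted p = 0.0192) in glyk1; the glyk1 call was lost without glyk1 HC replicate 2 (-0.89), glyk1 LC replicate 1 (-1.29) or glyk1 LC replicate 2 (-1.31). Against wild type LC, TPS6 was lower in shm1 (-0.94, SE 0.30, adjusted p = 0.0114) and in pglp1 (-1.01, SE 0.30, adjusted p = 0.00945). Both of these calls were lost without wild type LC replicate 3 (-0.58 and -0.65), the shm1 call also without shm1 LC replicate 2 (-0.39) and with only the groups compared (-0.77), and the pglp1 call without either pglp1 LC library (-0.83 and -0.88).

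TPS7, highest per length of the 8 members in HC and, like TPS5, a binding partner of 14-3-3 proteins, was at 87.7, 83.0 and 73.7 CPM in wild type HC and 73.2, 82.4 and 78.3 in wild type LC. In LC it was at 104 and 131 CPM in hpr1, 110.1 and 101 in shm1, 137 and 144 in glyk1, and 177 and 183 in pglp1. The mutants' HC libraries held 92.6 and 92.3 CPM (hpr1), 111 and 116 (shm1), 110.1 and 139 (glyk1), and 78.8 and 74.9 (pglp1). Every mutant LC library was above every wild-type library, and so was every HC library of hpr1, shm1 and glyk1. The pglp1 HC libraries lay within the wild-type range.

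Compared with wild type LC, TPS7 was higher in glyk1 (0.85, SE 0.15, adjusted p = 0.000289), 2.31-fold higher in pglp1 (1.21, SE 0.15, adjusted p = 7.83e-06) and 1.35-fold higher in shm1 (0.44, SE 0.15, adjusted p = 0.0211). The shm1 call was lost without wild type LC replicate 1 (0.39) or shm1 LC replicate 1 (0.37), and with only the groups compared (0.62, adjusted p = 0.0627). The hpr1 difference was 0.59 (SE 0.15, adjusted p = 0.0532). From HC to LC, TPS7 rose 2.34-fold in pglp1 (1.23, SE 0.17, adjusted p = 2.84e-05), and this response exceeded that of the wild type by 1.29 (SE 0.22, adjusted p = 0.000290). Its change from HC to LC was 0.34 (adjusted p = 0.169) in hpr1, -0.11 (adjusted p = 0.602) in shm1 and 0.17 (adjusted p = 0.414) in glyk1.

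TPS8 was at 57.7, 42.9 and 29.2 CPM in wild type HC and at 29.0, 74.7 and 79.4 in wild type LC. After the shift it stood at 84.5 and 255 CPM in hpr1, 168 and 149 in shm1, 76.3 and 73.0 in glyk1, and 169 and 227 in pglp1. The hpr1 LC libraries lay far apart, one near the wild type and glyk1 and one above all other libraries. In HC the lines ranged from 22.1 CPM (pglp1 replicate 2) to 96.8 CPM (shm1 replicate 1).

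From HC to LC, TPS8 rose 6.12-fold in pglp1 (2.61, SE 0.53, adjusted p = 0.000661) and 4.50-fold in hpr1 (2.17, SE 0.52, adjusted p = 0.0168). The hpr1 call was lost without hpr1 HC replicate 1 (2.13), hpr1 HC replicate 2 (2.21) or hpr1 LC replicate 2 (1.16, adjusted p = 0.196) and with only the groups compared (2.22, adjusted p = 0.0699), and the pglp1 value was 3.23 without pglp1 HC replicate 1. Compared with wild type LC it was higher by 3.24-fold in pglp1 (1.70, SE 0.45, adjusted p = 0.00416) and by 2.60-fold in shm1 (1.38, SE 0.45, adjusted p = 0.0135), the latter lost without shm1 LC replicate 1 (1.29, adjusted p = 0.0605). The pglp1 response exceeded that of the wild type by 2.12 (SE 0.65, adjusted p = 0.0160), or by 2.02 (adjusted p = 0.0593) without pglp1 HC replicate 2 and 2.74 without pglp1 HC replicate 1.

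TPS9 was the lowest of the 8 members in the wild type, at 2.59, 3.20 and 4.46 CPM in HC and 1.78, 3.09 and 6.79 in LC. In shm1 LC it reached 36.2 and 38.8 CPM, above every other library. The other LC groups held 6.92 and 17.8 CPM (hpr1), 8.74 and 8.16 (glyk1) and 8.20 and 9.57 (pglp1), and mutant HC libraries 2.64 to 7.54.

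In shm1 the TPS9 transcript was 9.73-fold higher than in wild type LC (3.28, SE 0.48, adjusted p = 2.63e-05; 4.18 without wild type LC replicate 3) and 8.37-fold higher than in shm1 HC (3.06, SE 0.55, adjusted p = 0.000172). This response exceeded that of the wild type by 2.87 (SE 0.68, adjusted p = 0.00248; 3.79 without wild type LC replicate 3). In hpr1 it rose 4.06-fold from HC to LC (2.02, SE 0.54, adjusted p = 0.0246), a call lost without hpr1 HC replicate 1 (1.81), hpr1 HC replicate 2 (2.26) or hpr1 LC replicate 2 (1.15), and with only the groups compared (2.07). In pglp1 it rose 2.63-fold (1.39, SE 0.55, adjusted p = 0.0425), and it was 2.31-fold higher than in wild type LC (1.21, SE 0.48, adjusted p = 0.0411). The first pglp1 call was lost without pglp1 HC replicate 1 (1.65), pglp1 HC replicate 2 (1.45) or pglp1 LC replicate 2 (1.51) and when the displaced rows stayed in (adjusted p = 0.0529), and the second with only the groups compared (1.23) and without wild type LC replicate 1 (0.84), wild type LC replicate 2 (1.08), pglp1 LC replicate 1 (1.47) or pglp1 LC replicate 2 (1.24), while it was 2.08 without wild type LC replicate 3. The glyk1 difference from wild type LC was 1.13 (SE 0.47, adjusted p = 0.0511), and 1.91 (adjusted p = 0.00250) without wild type LC replicate 3.

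TPS10 was at 53.4, 29.9 and 27.8 CPM in wild type HC and at 53.2, 42.2 and 53.1 in wild type LC. The mutants in LC held 60.3 and 90.0 CPM in hpr1, 112 and 146 in shm1, 82.1 and 52.6 in glyk1, and 104 and 161 in pglp1. The shm1 and pglp1 LC libraries all lay above the other genotypes, and glyk1 LC overlapped the wild type. In shm1 LC it was 2.60-fold higher than in the wild type (1.38, SE 0.32, adjusted p = 0.00131) and in pglp1 2.68-fold higher (1.42, SE 0.32, adjusted p = 0.00120). From HC to LC it rose 2.43-fold in hpr1 (1.28, SE 0.36, adjusted p = 0.0294), 2.47-fold in shm1 (1.31, SE 0.36, adjusted p = 0.00466) and 2.52-fold in pglp1 (1.33, SE 0.36, adjusted p = 0.00514). The hpr1 call was lost without hpr1 HC replicate 1 (1.37), hpr1 HC replicate 2 (adjusted p = 0.126) or hpr1 LC replicate 2 (0.96). No TPS10 response differed from that of the wild type in the main edgeR fit (0 of 4 at an unadjusted p under 0.05). DESeq2 called that of pglp1 (1.13, adjusted p = 0.0462). Without wild type HC replicate 3, edgeR called it in shm1 (1.28, adjusted p = 0.0375) and pglp1 (1.36, adjusted p = 0.0359). The pglp1 value was 1.47 without pglp1 LC replicate 1.

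TPS11 was at 35.0, 17.1 and 29.6 CPM in wild type HC and at 16.4, 54.1 and 94.9 in wild type LC, with replicate 1 low and replicate 3 high among the LC libraries. In LC it was at 78.7 and 130.2 CPM in hpr1, 327 and 382 in shm1, 243 and 136 in glyk1, and 280.3 and 294 in pglp1. In HC the lines were at 28.3 and 32.4 CPM (hpr1), 65.0 and 61.9 (shm1), and a mean of 77.0 (glyk1), with a mean of 16.4 (SD 7.99) in pglp1. The LC libraries of shm1, glyk1 and pglp1 lay above all others.

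From HC to LC the TPS11 transcript rose 17.6-fold in pglp1 (4.14, SE 0.66, adjusted p = 9.02e-05; adjusted p = 0.000882 and a larger value without pglp1 HC replicate 1) and 5.59-fold in shm1 (2.48, SE 0.61, adjusted p = 0.00230). Its differences were 1.02 (adjusted p = 0.568) in the wild type, 1.79 (adjusted p = 0.0548) in hpr1 and 1.30 (adjusted p = 0.0734) in glyk1. Against wild type LC it was 6.44-fold higher in shm1 (2.69, SE 0.53, adjusted p = 0.000403), 5.21-fold higher in pglp1 (2.38, SE 0.53, adjusted p = 0.00117) and 3.44-fold higher in glyk1 (1.78, SE 0.52, adjusted p = 0.00938). Without wild type LC replicate 3, the highest wild-type library, these were 3.56, 3.24 and 2.54, and the glyk1 value was 1.37 (adjusted p = 0.104) without glyk1 LC replicate 1 and 1.85 (adjusted p = 0.0804) with only the groups compared. The pglp1 response exceeded that of the wild type by 3.12 (SE 0.78, adjusted p = 0.00442), by 3.79 without pglp1 HC replicate 1 and by 4.10 without wild type LC replicate 3. The shm1 response differed by 1.47 (adjusted p = 0.113), or by 2.37 (adjusted p = 0.0101) without wild type LC replicate 3.

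**Figure D4:**
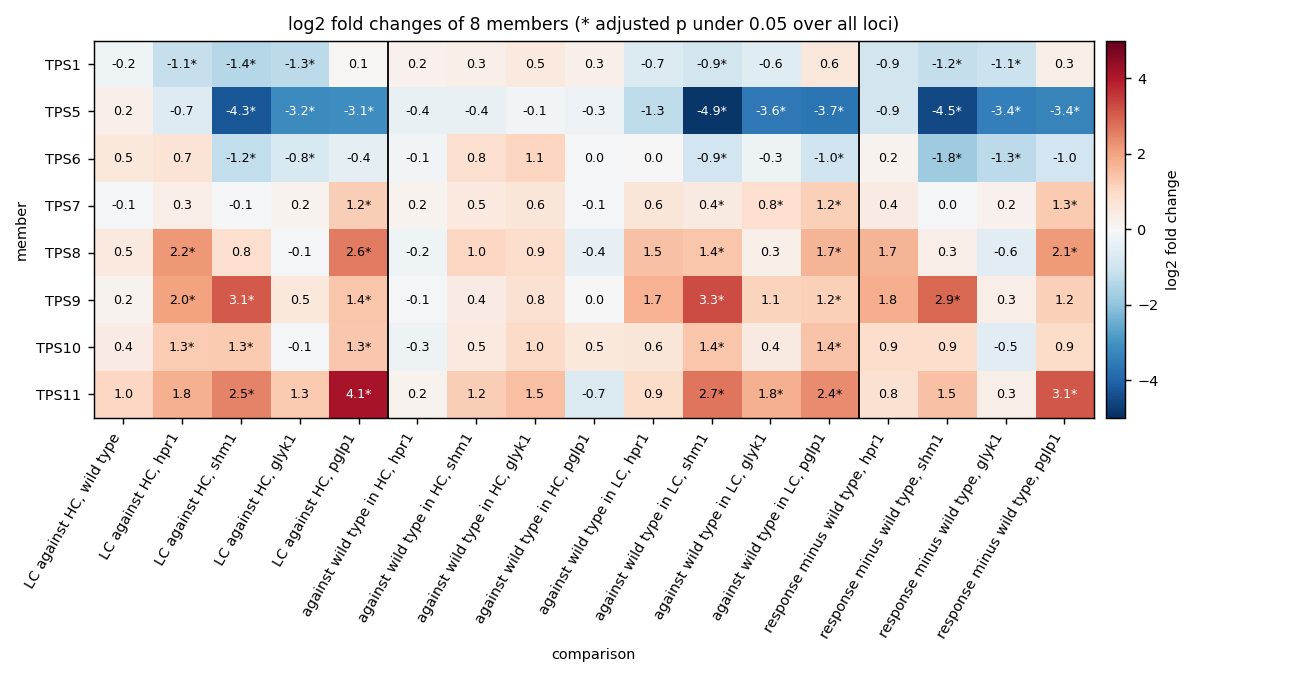
Log2 fold changes of 8 members (rows) in the comparisons (columns), with an asterisk where the adjusted p was under 0.05. In LC against the wild type the TPS5 row is negative in all 4 mutants and the TPS11 row positive, with the lowest value -4.87 for TPS5 and the highest 3.28 for TPS9, both in shm1.

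Counted over the 8 members, no member was called between LC and HC in the wild type, where 0.0196% of the 20433 tested loci were (edgeR; 0 members at an unadjusted p under 0.05 and 0 called by DESeq2). In hpr1, 3 members rose (8.34% of all loci) and 1 fell (6.90%), and 0 to 3 were called when any 1 library was left out; the count was 0 without hpr1 HC replicate 1, hpr1 HC replicate 2 or hpr1 LC replicate 2. In shm1, 3 rose (31.9%) and 3 fell (33.5%). In glyk1, 0 rose (27.1%) and 3 fell (27.5%), and in pglp1, 5 rose (24.3%) and 1 fell (32.3%). The median log2 fold change of the 8 members was 0.33, 0.99, 0.37, -0.09 and 1.28 in the wild type, hpr1, shm1, glyk1 and pglp1, beside -0.01, 0.00, -0.05, -0.06 and -0.25 over all tested loci.

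In HC, none of the 8 members differed between a mutant and the wild type in edgeR. Of all loci, 0.00489% were called in hpr1, 0.0147% in shm1, 0.00489% in glyk1, and 2.44% higher and 1.67% lower in pglp1. At an unadjusted p under 0.05 there were 0 members in hpr1, 4 in shm1, 4 in glyk1 and 0 in pglp1, and DESeq2 called 0, 1, 2 and 0.

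The 4 mutants were compared in LC with the same 3 wild-type libraries, so these counts are not independent of each other. In hpr1, 0 members were called (2.82% of all loci) in edgeR, with 5 at an unadjusted p under 0.05 and 3 called by DESeq2. In shm1, all 8 members differed, 5 higher (31.3% of all loci) and 3 lower (35.1%); 5 to 7 were called when any 1 library was left out, 5 without shm1 LC replicate 1. In glyk1, 2 were higher (27.0%) and 1 lower (29.1%), with 2 called without glyk1 LC replicate 1. In pglp1, 5 were higher (26.1%) and 2 lower (34.5%), TPS1 being the member not called, and 5 to 7 were called when any 1 library was left out. The median over the 8 members was 0.60, 0.91, 0.37 and 1.21 in hpr1, shm1, glyk1 and pglp1, beside -0.02, -0.12, -0.13 and -0.29 over all tested loci.

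The response of a mutant to LC, less that of the wild type, was called for 0 members in hpr1 (0.0930% of all loci; 3 members at an unadjusted p under 0.05, 0 by DESeq2). In shm1 it was higher for 1 member (25.6%) and lower for 3 (28.3%), in glyk1 higher for 0 (20.0%) and lower for 3 (19.3%), and in pglp1 higher for 3 (18.4%) and lower for 1 (25.1%). In glyk1 the count was 1 without either LC library of glyk1. TPS5 was the member with a lower response in all 3 of these lines, while the members with a higher response were TPS9 in shm1 and TPS7, TPS8 and TPS11 in pglp1.

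Across the 10 groups the class II members did not all follow each other. TPS8, TPS9, TPS10 and TPS11 group means moved together (Pearson's r of log2 CPM 0.88 for TPS8 and TPS11, 0.87 for TPS10 and TPS11, 0.86 for TPS8 and TPS10, and 0.79, 0.83 and 0.85 for TPS9 with TPS8, TPS10 and TPS11), and TPS5 ran opposite to TPS11 (-0.87) and TPS9 (-0.83). TPS7 also ran with TPS11 (0.77), TPS8 (0.74) and TPS10 (0.68), and less with TPS9 (0.44). TPS6 showed little relation to TPS11 (-0.21) or TPS8 (-0.07). These are descriptions over 10 points that share their libraries.

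The next steps of the pathway are 10 trehalose 6-phosphate phosphatases and the trehalase TRE1, of which 9 genes were tested (TPPC and TPPI had too few counts). Against wild type LC, 1 gene was higher and 0 lower in hpr1 (2.02% of all loci higher), 4 higher and 2 lower in shm1, 5 higher and 1 lower in glyk1, and 3 higher and 2 lower in pglp1. The background shares are those given above for the same comparisons. The list medians were -0.34, 0.46, 1.70 and 0.51.

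TRE1 was the gene of this list with the largest difference in shm1, at 119.6 to 133 CPM against 4.14 to 4.43 CPM in wild type LC, 29.7-fold higher (4.89, SE 0.30, adjusted p = 2.21e-08). It was also higher in hpr1 (1.68, SE 0.28, adjusted p = 0.00722), glyk1 (2.02, SE 0.28, adjusted p = 2.50e-05) and pglp1 (1.86, SE 0.28, adjusted p = 4.33e-05). TPPD was higher in shm1 (3.81, SE 0.78, adjusted p = 0.000501) and in glyk1 (5.16, SE 0.79, adjusted p = 6.36e-05), from 0.0753 to 0.159 CPM in wild type LC to 1.42 to 2.14 and 3.15 to 5.91 CPM. TPPJ was higher in glyk1 (2.72, adjusted p = 2.01e-06) and in pglp1 (2.72, adjusted p = 1.31e-06).

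TPPA rose to 33.3 to 44.6 CPM in pglp1 LC from 0.892 to 6.17 CPM in wild type LC (3.71, SE 0.48, adjusted p = 9.69e-06), and was higher in glyk1 as well (2.48, SE 0.47, adjusted p = 0.000419). It was already 4.98-fold higher in pglp1 HC than in wild type HC (2.32, SE 0.46, adjusted p = 0.0123), at 20.1 to 21.8 CPM against 3.56 to 4.62. The genes that fell were TPPH in shm1 (-2.48, SE 0.65, adjusted p = 0.00331) and pglp1 (-3.04, SE 0.79, adjusted p = 0.00359), and TPPE in shm1 (-2.10), glyk1 (-1.70) and pglp1 (-2.91, SE 0.52, adjusted p = 0.000181). Phosphatase genes moved in both directions within 1 line, as the synthase genes and the loci as a whole did. Of all loci, 31.3% were higher and 35.1% lower in shm1 LC, and 26.1% and 34.5% in pglp1 LC.

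**Figure D5:**
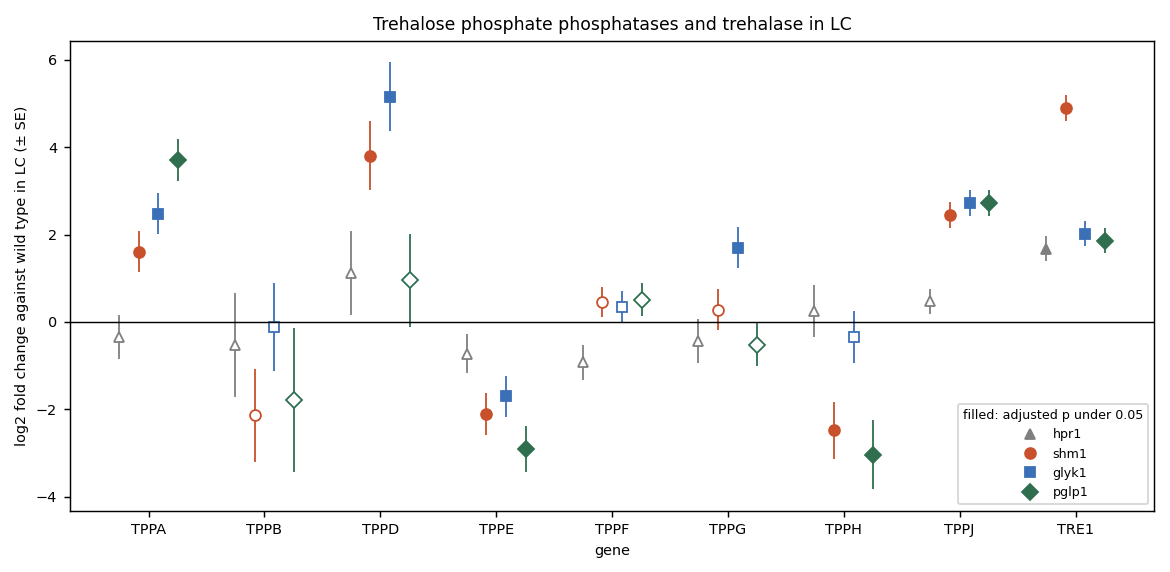
Log2 fold change in LC against wild type LC for the 9 tested phosphatase and trehalase genes, with bars of 1 SE; filled points had an adjusted p under 0.05. TRE1 is higher in all 4 mutants, most in shm1 (4.89), and TPPE is lower in shm1, glyk1 and pglp1.

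SnRK1 is a complex of a catalytic alpha subunit (KIN10 or KIN11) with beta and gamma-type subunits, and is activated by the kinases GRIK1 and GRIK2. Of 9 tested genes (KIN12 has no row in the table used), 1 was higher in hpr1, 4 higher and 1 lower in shm1, 3 higher and 1 lower in glyk1, and 3 higher and 4 lower in pglp1, all against wild type LC; the list medians were 0.18, 0.66, 0.05 and 0.71. Of all loci, 2.02% were higher in hpr1, 31.3% higher and 35.1% lower in shm1, 27.0% and 29.1% in glyk1, and 26.1% and 34.5% in pglp1, so the pglp1 counts lay near the background. The beta subunit gene SNRK1_BETA1 was higher in hpr1 (1.77), shm1 (1.77) and glyk1 (1.98, SE 0.44, adjusted p = 0.00137), and SNRK1_BETA2 was lower in shm1 and glyk1 (-1.23 in glyk1; 17.8 to 21.1 and 16.0 to 17.1 CPM against 34.8 to 46.4). GRIK2 was higher in shm1 (1.65), and SNF4, a gamma-type subunit, in glyk1 (0.68). KIN10 was lower in pglp1 (-1.58, SE 0.28, adjusted p = 0.000161), as was SNRK1_BETA3 (-1.19), while GRIK1 was higher there (1.59), with 2 wild type LC libraries in that fit.

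The bZIP factors of groups C and S1 act in the same sugar signal, S1 messages being translated less when sucrose is high, and BZIP63 is phosphorylated by SnRK1. Of 9 genes, 2 were higher and 0 lower in hpr1 LC against the wild type, 7 and 0 in shm1, 5 and 1 in glyk1, and 5 and 1 in pglp1, with list medians of 0.67, 2.38, 1.82 and 0.92. The shares of all loci that were higher and lower were 31.3% and 35.1% in shm1, 27.0% and 29.1% in glyk1, and 26.1% and 34.5% in pglp1, with 2.02% higher in hpr1. In shm1 the leading genes were BZIP11 (5.01, SE 0.65, adjusted p = 9.39e-06), BZIP63 (3.82, SE 0.51, adjusted p = 1.20e-05) and BZIP1 (2.66, SE 0.57, adjusted p = 0.000767). In glyk1 they were BZIP63 (2.37), BZIP25 (2.34) and BZIP53 (2.14), and in hpr1 BZIP63 (2.16) and BZIP53 (0.74). In pglp1 BZIP2 was lower (-3.53, SE 0.31, adjusted p = 2.46e-07), and BZIP63 (2.89) and BZIP25 (1.95) were higher. BZIP25 and BZIP53 lie in the displaced blocks and were fitted with 2 wild type LC libraries.

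Of 14 transcripts used as markers of carbon starvation, 2 were higher and 0 lower in hpr1, 8 and 1 in shm1, 10 and 0 in glyk1, and 3 and 3 in pglp1, all in LC against the wild type, with list medians of 1.42, 2.11, 2.71 and 0.24. Beside them stand 2.02% of all loci higher in hpr1, 31.3% higher and 35.1% lower in shm1, 27.0% and 29.1% in glyk1, and 26.1% and 34.5% in pglp1, where the counts of this list did not exceed the background. DIN11, known as dark-inducible, had 2 counts in all in the 2 wild type LC libraries that could be used, and a mean of 1484 CPM in shm1, 347 CPM in glyk1 and 78.0 CPM in pglp1 LC. The beta-glucosidase gene DIN2 was higher in shm1 (8.41, SE 1.48, adjusted p = 0.000180) and pglp1 (4.44, SE 1.41, adjusted p = 0.0140), also with 2 wild type LC libraries. MIOX2, a myo-inositol oxygenase gene, was higher in shm1 (7.78) and glyk1 (5.69), and DIN10, a raffinose synthase-like gene, in glyk1 (5.43) and hpr1 (3.97). The cell wall hydrolase gene BXL1 was higher in hpr1 (4.78), and DRM2 was lower in pglp1 (-3.30). Of the 41 tested genes of the 4 lists, none was called by edgeR between LC and HC in the wild type; 4 had an unadjusted p under 0.05, and DESeq2 called 1.

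The loci outside the family whose group means ran most like each member's were found among 17587 loci, as Pearson's r of log2 CPM over the 10 groups. For TPS1 they were MIPS1 (0.973), encoding myo-inositol-1-phosphate synthase, and AT1G78690 (0.965). For TPS5 they were SECE1 (0.994) and SGS3 (0.994), for TPS6 AT1G74840 (0.958) and AT1G51520 (0.938), and for TPS7 VLN3 (0.950) and AT2G20670 (0.940). TPS8 was most like KING1 (0.962), a gamma-type SnRK1 subunit gene, and MYB73 (0.940). TPS9 was most like AT4G23050 (0.979) and GRP3S (0.979), TPS10 like AT4G25180 (0.969) and MTM1 (0.963), and TPS11 like AT3G02860 (0.985) and FHA2 (0.982). The closest loci to TPS2 were AT2G12905 (0.994) and AT3G20362 (0.983), with Spearman's rho of 0.615 for both, since most groups are at or near 0. KING1, VLN3, MTM1, FHA2 and AT3G20362 lie in the displaced blocks. Their wild type LC means leave out replicate 3, which the members' means include.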

How the data were processed

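The 22 leaf libraries were sequenced single-end or paired-end on different instruments, and the labels do not tie libraries to modes. The authors' deposited table holds, per locus, raw counts, RPKM, and their own log2 fold changes with q-values, per the file headers. Per the submitters' processing notes CASAVA 1.8 and edgeR were used with TAIR9 and TAIR10 (aligner not given in the sources used here). The deposited counts were the base of every test, and RPKM of levels per length only (99.8% of RPKM values give whole reads within 0.05). Of the authors' own results, log2 values are quoted where named. Their q-values against wild type LC were all above 0.05 for the 8 members without TPS2 and TPS4, the lowest being 0.539 (TPS5 in shm1). From HC to LC their q for TPS5 was 3.27e-11 in shm1, 4.75e-11 in glyk1 and 2.09e-23 in pglp1. For TPS10 in shm1 it was 0.754. Why these q-values differ from the adjusted p-values given here was not traced. Counts were scaled by TMM and tested with edgeR 4.0.16 (R 4.3.3, limma 3.58.1) by the quasi-likelihood test with 10 group means over all 22 libraries, or 21 for the 3615 displaced loci. P-values were adjusted by Benjamini and Hochberg over 20433 loci with a threshold of 0.05; 17 comparisons were made, of which 5 set LC against HC, 8 a mutant against the wild type and 4 a mutant's response against that of the wild type. SE is the log2 fold change over the square root of F. DESeq2 1.42.0, other scalings, no filter, the rows as deposited, only the groups compared, a replicate block, leaving out each library and the reads behind the RPKM (added after the data were seen) were alternatives. The fit was also run on simulated counts with the same spread for all loci and large changes put into shm1 LC only. That run does not cover the uneven spread between these replicates, or smaller changes.

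Replicates are biological per the labels and differed by more than sampling noise (chi-square per degree of freedom 9.0 to 343.3). Same-numbered wild-type libraries in HC and LC deviated together (correlations 0.46, 0.17 and 0.39 over 3 pairs). The main tests did not use these pairs. A replicate block over all 10 groups was run only as an alternative. With the block, 0 members were called between LC and HC in the wild type, as without it. Fold bounds use a floor of 3 counts over the group and cover counting error only.

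The members and lists were chosen with earlier results of these data known. All 10 members are named, and of each list the up to 3 called genes with the largest absolute log2 fold change in a comparison; further genes of the lists were named after their values were seen. Likeness used loci with a mean of at least 1 CPM and log2(CPM + 0.5).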

Additional observations from a re-analysis of the deposited data

Results flagged for a closer look

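The following differences are results in which a mutant's change from HC to LC differed from that of the wild type by the edgeR test of the difference itself. All 4 lines share the wild-type libraries in these differences, and the values are log2 units. For TPS5 (AT4G17770) the response was lower by -4.50 in shm1, -3.42 in glyk1 and -3.35 in pglp1. TPS1 (AT1G78580) responded lower by -1.19 in shm1 and -1.09 in glyk1, and TPS6 (AT1G68020) by -1.76 in shm1 and -1.32 in glyk1. TPS9 (AT1G23870) responded higher by 2.87 in shm1. In pglp1 the response was higher by 1.29 for TPS7 (AT1G06410), 2.12 for TPS8 (AT1G70290) and 3.12 for TPS11 (AT2G18700). The TPS1 call was lost under 6 of 17 alternatives in shm1 and under 15 of 17 in glyk1. Some alternatives also ended the calls of TPS6 in glyk1 and TPS8 in pglp1. Groups of 2 or 3 libraries were not searched for outlying libraries.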

How the results depend on the processing

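Counts of members here are over the 8 without TPS2 and TPS4. Of 48 called values of these members, 29 kept the call under every alternative run and 19 lost it under at least 1; the report names the libraries whose omission ended a call, or gives the number of alternatives that did. Over 1768 repeats of the members' values, 1659 kept direction and side of the threshold, 76 lost a call, 33 gained one and none of a called value reversed; 39 changed sign, all of them values called in neither fit. With DESeq2's test the number of called members moved from 0 to 1 for shm1 and from 0 to 2 for glyk1 against the wild type in HC, and from 0 to 3 for hpr1 in LC. That last count was 1 with DESeq2 size factors, 1 with the replicate block and 1 on the reads behind the RPKM. On those reads TPS2 has no counts in pglp1. With only the groups compared in the fit, the shm1 count in LC moved from 8 to 5. The cause of the other moves was not tested.

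For the genes of the 4 lists together, DESeq2 moved the count from 0 to 1 for LC against HC in the wild type, from 0 to 1 for shm1, 0 to 2 for glyk1 and 3 to 5 for pglp1 in HC, from 6 to 11 for hpr1 in LC, and from 0 to 4 for the hpr1 response. With all rows as deposited the hpr1 count from HC to LC moved from 14 to 9, and with only the groups compared the counts moved from 3 to 1 for pglp1 in HC and from 6 to 0 for hpr1 in LC.

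Leaving out 1 library at a time gave 0 to 3 called members for hpr1, 5 to 6 for shm1, 2 to 2 for glyk1 and 5 to 6 for pglp1 from HC to LC; 0 to 1 for hpr1, 5 to 7 for shm1, 2 to 4 for glyk1 and 5 to 7 for pglp1 in LC; and 3 to 4 for shm1, 1 to 3 for glyk1 and 3 to 5 for pglp1 in the response. For the listed genes the ranges were 0 to 1 in the wild type, 0 to 15 in hpr1, 17 to 25 in shm1, 14 to 20 in glyk1 and 20 to 21 in pglp1 from HC to LC; 0 to 4 for pglp1 in HC; 2 to 7, 25 to 28, 22 to 26 and 19 to 25 for hpr1, shm1, glyk1 and pglp1 in LC; and 0 to 1, 15 to 23, 9 to 18 and 11 to 19 in the response. Where a group was left with 1 library, that library was assumed to vary like the others.

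The mutants' replicate numbers do not pair HC with LC (correlations -0.37 in hpr1, -0.10 in shm1, 0.04 in glyk1 and -0.06 in pglp1). Under the replicate block the count over all loci moved from 576 to 329 for hpr1 in LC and from 840 to 640 for pglp1 in HC, TPS9 was called in hpr1 LC (2.20, adjusted p = 0.0236) and glyk1 LC (1.68, adjusted p = 0.00343), and the glyk1 calls of the TPS1 response (adjusted p = 0.0506) and the TPS6 fall (adjusted p = 0.0586) were lost. Without TMM factors 26 of 100 levels moved by more than 1 SD. None of the 80 places in the order of members within a group moved when RPKM was taken from TMM-scaled CPM. The summed RPKM were not repeated with TMM factors. With Spearman's rho, 3 of 18 likeness values moved by 0.1 or more. Depth limits TPS4, with 0 to 4 counts, and TPS2 outside pglp1.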
